A study of Mus musculus with 2 samples.

Results

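The levels of 10 macrophage genes were followed in explanted ureters of mouse embryos in which the secretion of WNT ligands was blocked. The genes were selected on measured values of this same experiment: *Marco*, *Ms4a7*, *Gpnmb* and *Gpr84* were picked as induced by the inhibitor, and *C1qa*, *C1qb*, *C1qc*, *Csf1r*, *Cd68* and *Mrc1* as general macrophage genes to set beside them. All 13 probes that carry these names were used, for 10 of the 29924 gene names on the array, of which 20119 could be tested. Because the induced genes were chosen by the contrast reported below, their change and their lead over the general genes are given as a description, without a test.

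Ureters were dissected from wildtype NMRI embryos at E11.5, kept on membranes at the air-liquid interface for 18 h in serum-free medium, and pooled before RNA was extracted. Treated cultures received 10 µM IWP-2, an inhibitor of Porcupine, the enzyme that attaches the lipid which WNT proteins need for secretion, and control cultures received the solvent DMSO. The sex of the embryos was not determined. Each of 2 two-colour arrays held the RNA of 1 treated and 1 control pool with the dyes exchanged, so that 4 pools were measured, 2 per group. Whether the pools of a group came from separate litters or days is not given in the sources used here. The p-values below rest only on the 2 arrays. In limma the spread of each gene was pooled with that of all genes tested, so the p-values do not measure its own spread alone.

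Macrophages enter embryonic organs early, from progenitors of the yolk sac and the fetal liver, and clear dying cells and debris. Survival and identity of these cells depend on the receptor CSF1R, while the chains of C1q, the lysosomal glycoprotein CD68 and the mannose receptor MRC1 are made by most tissue macrophages. The induced genes are known from macrophages that meet particles, lipids or inflammatory stimuli: MARCO is a scavenger receptor with a collagen-like domain, MS4A7 a membrane-spanning protein of the MS4A family, GPNMB a glycoprotein of the lysosomal and surface membranes, and GPR84 a receptor for medium-chain fatty acids.

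Each induced gene was read by 1 probe of 60 bases, so its value rests on that sequence alone, and the first 30 bases are therefore shown for *Marco*, *Ms4a7* and *Gpr84*. With positions on mm9 as the array files give them, the *Marco* probe lay at chr1:122371115-122371134, the *Ms4a7* probe at chr19:11395903-11395962 and the *Gpr84* probe at chr15:103138670-103138729. The files place 20 of the 60 bases of the *Marco* probe, and whether the probes fall in coding or untranslated exons was not determined here. The *C1qa*, *C1qb* and *C1qc* probes are added because these genes are neighbours on chromosome 4, at chr4:136452409-136452468, chr4:136436578-136436637 and chr4:136445766-136445825, and encode related chains that are read by different sequences.
Marco: gagcccgagaggtcatcagtgtgtccccag
Ms4a7: agcagagtacagctagacttgcctgaaatc
Gpr84: gtcaaccctgtgtgacccaaggagtgtggt
C1qa: ccggccagctttctcagccattcggcagaa
C1qb: attctggggactacggggctacacagaaag
C1qc: tctgggaaccacctaatggtattattcctg

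Genes that respond to WNT signaling were read first. Of 7 such genes, 6 fell past a false discovery rate (FDR) of 0.05 in limma, beside 1.15% of all genes tested, with *Fzd10*, a Frizzled receptor, at a mean log2 ratio of IWP-2 over control of -2.29 ± 0.10 (SD, n = 2 arrays; adjusted p = 0.000431). *Axin2* had ratios of -1.38 and -0.64 and did not pass (adjusted p = 0.0502 in limma). The genes of this list were chosen with earlier results of these data known, so their fall is a description. Over all genes, 123 rose and 232 fell. With each array centred on its median in place of an intensity-dependent curve, 7 rose and 36 fell. The labelled tissue was checked against its markers, and all 7 markers of ureteric epithelium and all 6 of ureteric mesenchyme could be tested. Macrophages were read from 14 markers other than the members. All 14 could be tested, and 13 were well above background in every spot of all 4 pools. The other, *Fcgr1*, could be tested only because its treated spots were well above background. The log2 ratios of the 14 had a median of 0.33 on replicate 1 and of 0.58 on replicate 2, against -0.01 and 0.02 over all genes. In RNA of whole explants, more macrophages and more RNA of these genes per macrophage cannot be told apart.

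*Marco* stood farthest apart between the treated and the control pools. Its normalized intensity, in arbitrary units, was 477 in control and 2126 in IWP-2 on replicate 1, and 343 in control and 1429 in IWP-2 on replicate 2. Both treated pools lay above both control pools, and the log2 ratios of 2.16 and 2.06 gave a mean of 2.11 ± 0.07 (SD, n = 2), a fold change of 4.31. Among all genes tested *Marco* ranked 5th from the top on replicate 1 and 6th on replicate 2.

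*Ms4a7*, the MS4A gene among the members, came next. Its intensity was 1961 in control and 4715 in IWP-2 on replicate 1, and 1303 and 4642 on replicate 2. The treated pools differed little from each other and the control pools more, so that the log2 ratio was larger on replicate 2 (1.83) than on replicate 1 (1.27), with a mean of 1.55 ± 0.40 and a fold change of 2.93.

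*Gpr84*, whose transcript is known to rise in macrophages after inflammatory stimulation, was brighter on replicate 2 in both groups. Its intensity was 350.2 in control and 760.5 in IWP-2 on replicate 1, and 494 and 1488 on replicate 2. Both treated pools again exceeded both control pools, with log2 ratios of 1.12 and 1.59, a mean of 1.35 ± 0.33 and a fold change of 2.56.

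*Gpnmb*, known to be driven by the MiT/TFE factors of lysosome biogenesis, had intensities of 3010 in control and 6369 in IWP-2 on replicate 1, and of 1362 and 3430 on replicate 2. Here the groups did not overlap either, but the treated pool of replicate 2 exceeded the control pool of replicate 1 only narrowly. The log2 ratios were 1.08 and 1.33, with a mean of 1.21 ± 0.18 and a fold change of 2.31, the smallest among the induced genes.

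**Figure D1:**
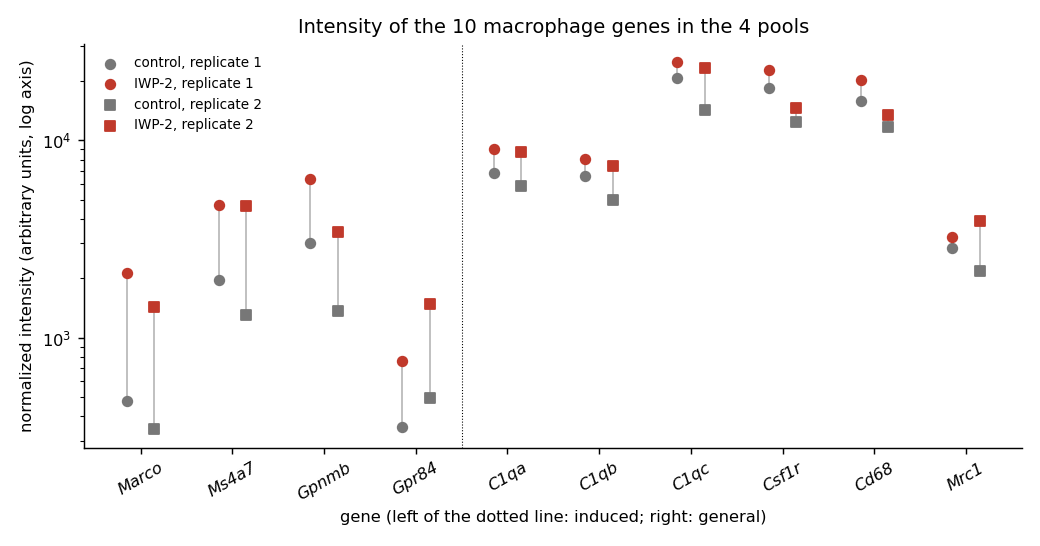
Normalized intensity (arbitrary units, log axis) of the brightest probe of each gene in the control (grey) and IWP-2 (red) pools, with circles for replicate 1, squares for replicate 2 and a grey line joining the pools of 1 array. Within every gene and array the IWP-2 pool lies above its control, with long lines for the 4 genes left of the dotted line, as for *Marco* from 477 to 2126, and short lines for the 6 genes right of it; heights of different genes are read by different probes and are not comparable.

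The general genes were also higher in IWP-2 on both arrays, by less. The chains of C1q, which form the recognition unit of the classical complement pathway, gave similar values. *C1qa* had an intensity of 6820 in control and 9069 in IWP-2 on replicate 1, and of 5852 and 8741 on replicate 2, with a mean log2 ratio of 0.49 ± 0.12. *C1qb* had 6599 and 8065 on replicate 1, and 5014 and 7410 on replicate 2, with a mean log2 ratio of 0.43 ± 0.19. *C1qc* had 20690 and 24910 on replicate 1, and 14280 and 23230 on replicate 2, with a mean log2 ratio of 0.49 ± 0.31. For all chains both treated pools lay above both control pools, and the log2 ratio was larger on replicate 2 (0.56 to 0.70) than on replicate 1 (0.27 to 0.41).

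*Mrc1*, an endocytic receptor for mannose-rich glycans, differed most between the arrays. Its intensity was 2839 in control and 3234 in IWP-2 on replicate 1, and 2187 and 3903 on replicate 2. The groups did not overlap, but the log2 ratio was 0.19 on the first and 0.84 on the second array, and its SD of 0.46 about the mean of 0.51 was exceeded by that of few genes, at the 97.1th percentile of the SDs of all genes tested.

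*Csf1r* and *Cd68* had the smallest mean ratios and the smallest ratios on replicate 2, while on replicate 1 *Mrc1* was lowest. *Csf1r* had an intensity of 18430 in control and 22680 in IWP-2 on replicate 1, and of 12380 and 14630 on replicate 2, with a mean log2 ratio of 0.27 ± 0.04. *Cd68* had 15860 and 20200 on replicate 1, and 11760 and 13500 on replicate 2, with a mean log2 ratio of 0.27 ± 0.11. For these genes the treated pool of replicate 2 lay below the control pool of replicate 1, so that the groups overlapped and the difference appeared only within an array. They were also the only general genes whose ratio was smaller on replicate 2 than on replicate 1.

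**Figure D2:**
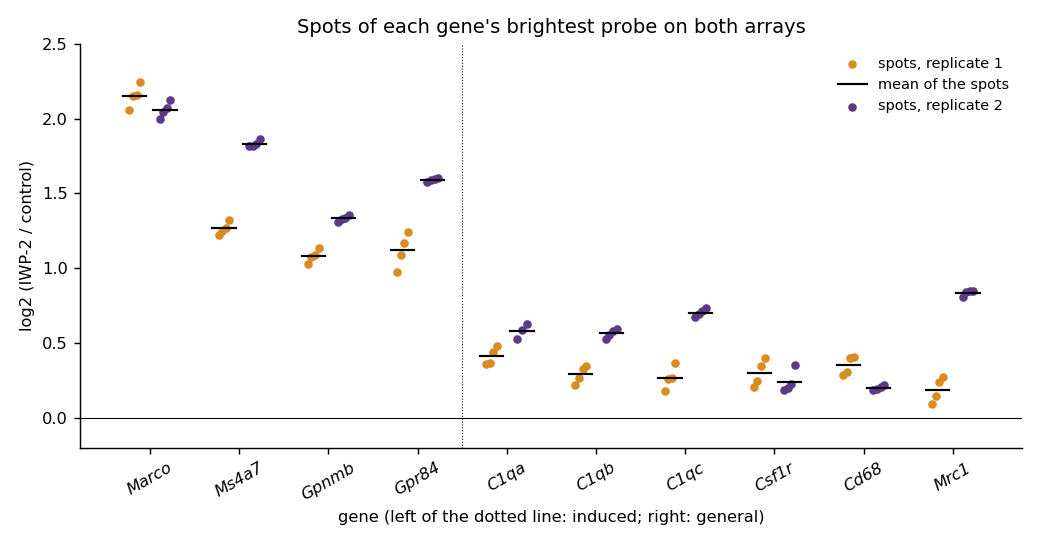
Log2 ratio of IWP-2 over control for each spot of the brightest probe of each gene (orange, replicate 1; purple, replicate 2), with the mean of the spots as a black bar. No spot lies below 0, the spots of the 4 genes left of the dotted line start at 0.98, and the spot ranges of the arrays do not overlap in 8 of the 10 genes.

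Averaged over the genes of a class, the induced genes had a log2 ratio of 1.41 on replicate 1 and 1.70 on replicate 2, and the general genes of 0.30 and 0.52. The difference was 1.10 on the first and 1.18 on the second array (mean 1.14 ± 0.06, SD, n = 2), which corresponds to a 2.21-fold larger ratio. The classes did not overlap on either array. The lowest induced gene exceeded the highest general gene by 0.67 on replicate 1, where these were *Gpnmb* and *C1qa*, and by 0.50 on replicate 2, where they were *Gpnmb* and *Mrc1*. Since the split was chosen from this contrast, its direction was fixed by the choice of genes. All 10 members had a ratio above 0 on both arrays, beside 28.5% of all genes tested, and 4 of 10, the induced genes, passed FDR 0.05 upward in limma, beside 0.611% of all genes. Nothing is read from either count, because the same contrast chose the members.

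The macrophage markers were set beside both classes as a description. As the induced genes were chosen from this contrast, their lead over the markers was fixed by that choice too. The mean of the general genes lay within 0.06 of the marker median on either array (-0.02 on replicate 1 and -0.06 on replicate 2). The mean of the induced genes lay 1.08 above the marker median on replicate 1 and 1.13 above it on replicate 2, and 0 of the 14 markers reached the lowest induced gene on either array.

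**Figure D3:**
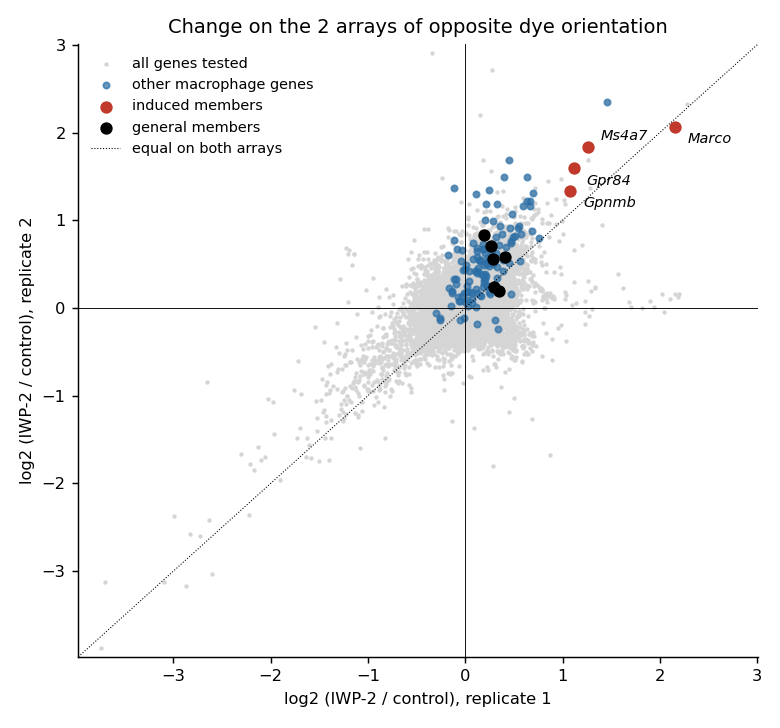
Log2 ratio of IWP-2 over control on replicate 1 (horizontal) and replicate 2 (vertical) for all 20119 genes tested (grey), 123 other macrophage genes (blue), the 6 general members (black) and the 4 induced members (red); the dotted line marks equal ratios. *Marco* lies near the line at 2.16 and 2.06, the general members lie between 0.19 and 0.84, and most blue points lie above the line.

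Only *Cd68* and *Csf1r* had more than 1 probe, so that no other probe could be tried for the other 8 genes, the induced ones included. Every spot of the 13 probes was well above background in both channels. *Cd68* had a second probe with log2 ratios of 0.19 and 0.27, close to the 0.35 and 0.20 of the brightest probe. *Csf1r* had 2 further probes: one gave 0.19 and 0.14, the other 0.40 on replicate 1 and -0.16 on replicate 2, so that the probes of this gene disagreed in sign on the second array. Spots of a probe repeated each other closely, with SDs from 0.01 to 0.11 on the log2 scale, and for 8 of the 10 genes the spot ranges of the arrays did not overlap, the exceptions being *Marco* and *Csf1r*. The SD between the arrays exceeded both spot SDs for 8 of the 10 genes. For *Marco* it was 0.07, against a spot SD of 0.08 on replicate 1, and for *Csf1r* 0.04, against 0.09 and 0.07. The SD between arrays rests on 2 values and has little precision.

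Macrophage genes outside the members were listed by function, and of 143 on the array 123 could be tested. The 14 macrophage markers read above are among these 123 and are not a separate reading. Of these 123, 11 rose past FDR 0.05 in limma (8.94%, beside 0.611% of all genes) and 0 fell. At an unadjusted p under 0.05 in limma 71 were higher, beside 1745 of all 20119 genes tested. Higher on both arrays were 94 (76.4%, beside 28.5% of all genes). The lists were chosen with earlier results of these data known, so these counts and those of each list below are a description. For the 123 genes the median of the mean log2 ratios was 0.33, and the median was 0.19 on replicate 1 and 0.50 on replicate 2. The count of 11 ran from 0 to 44 under other ways of processing. It includes *Cxcl3*, *Irg1* and *Cxcl2*, which could be tested only because their treated spots were well above background. Among the 123, *Cxcl1*, *Il1a* and *Fcgr1* had the same limit, and they enter the medians and the other counts. Of the 123, 33 exceeded the highest general member, *Mrc1*, and 1, the neutrophil-attracting chemokine *Cxcl3*, exceeded the lowest induced member, *Gpnmb*. The ratio was larger on replicate 2 than on replicate 1 for 110 of the 123 genes and for 7 of the 10 members, beside 59.3% of all genes tested. The median of every functional list except the CSF1 receptor axis was likewise larger on replicate 2. Counts in each list below stand beside the same shares of all genes, 28.5% higher on both arrays and 0.611% risen past FDR 0.05. Unadjusted counts stand beside the 1745 of 20119 genes. Dye orientation and pool differ together between the arrays and cannot be told apart.

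Among 14 transcription factors of macrophages, 2 rose and 12 were higher on both arrays, with a median of 0.29. *Nr1h3*, which encodes the oxysterol receptor LXRα, rose by a log2 ratio of 0.78 ± 0.03 (adjusted p = 0.0193 in limma), and *Cebpb*, a factor of myeloid and inflammatory gene expression, by 0.78 ± 0.14 (adjusted p = 0.0245 in limma). *Spi1*, which encodes the lineage factor PU.1, had ratios of 0.32 and 0.63 and did not pass (adjusted p = 0.121 in limma).

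In the axis of the CSF1 receptor, 0 of 5 tested genes passed in limma (1 at an unadjusted p under 0.05). The trend and robust prior called 0. The separate-channel fit called 1, but its dye term leaves no residual for the ratios, here and in the lists below. *Csf2rb*, the shared beta chain of the receptors for GM-CSF and related cytokines, had the largest mean, at 0.62, and the ligand genes *Csf1* and *Il34* had 0.11 and 0.13.

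Of 21 surface and signaling genes of macrophages, 1 rose, with a median of 0.36 and 14 higher on both arrays. It was *Adgre1*, which encodes the antigen F4/80, with ratios of 0.64 and 1.21 (adjusted p = 0.0409 in limma). Scavenger and endocytic receptors, which share their role with MARCO and MRC1, gave 2 of 14 that rose and a median of 0.29. *Msr1*, another class A scavenger receptor, had ratios of 0.60 and 1.16 (adjusted p = 0.0449 in limma), and *Clec4n*, the lectin Dectin-2, had 0.57 and 0.84 (adjusted p = 0.0385 in limma). The ratios of *Marco*, 2.16 and 2.06, lay above both on either array.

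The family of *Ms4a7* was mostly dim: of 15 other genes 5 passed the filter. Of these 0 passed FDR 0.05 in limma (4 at an unadjusted p under 0.05; 1 with the trend and robust prior and 2 in the separate-channel fit), and 4 were higher on both arrays. *Ms4a6d* had the largest mean, with ratios of 0.48 and 1.07, below the 1.27 and 1.83 of *Ms4a7*.

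Partners of C1q in the complement system gave a median of 0.10 over 15 tested genes. In limma 0 passed (4 at an unadjusted p under 0.05; 1 with the trend and robust prior and 3 in the separate-channel fit). *Cd55*, which restrains complement on the cell surface, had the largest mean at 0.95, from ratios of 0.40 and 1.49.

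Lysosome and phagocytosis genes, whose compartment holds CD68 and GPNMB, had a median of 0.32, and 14 of 17 were higher on both arrays. In limma 0 of the 17 passed (9 at an unadjusted p under 0.05; 2 with the trend and robust prior and 5 in the separate-channel fit). *Acp5*, an acid phosphatase of osteoclasts and activated macrophages, had the largest mean at 0.70, from ratios of 0.21 and 1.18. Of 11 genes known from lipid-laden macrophages 1 rose, with a median of 0.27. This was *Fabp4*, a fatty acid-binding protein also made by endothelium, with ratios of 0.55 and 0.93 (adjusted p = 0.0430 in limma).

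Of the 21 inflammatory response genes tested 5 rose. The median of their means was 0.60, the highest among the functional lists, but this rested on replicate 2, with a median of 0.74. On replicate 1 the median was 0.24, below the 0.25 of the CSF1 receptor axis. *Cxcl3* had ratios of 1.45 and 2.34 (mean 1.90 ± 0.63, adjusted p = 0.0115 in limma), with a control channel well above background on replicate 2 only. *Irg1*, the older name of the itaconate-producing enzyme gene *Acod1*, had 0.69 and 1.31 (adjusted p = 0.0371 in limma), likewise with control well above background on replicate 2 only. *Cxcl2* was at least 1.92-fold higher (adjusted p = 0.0366 in limma), since the share of its control spots well above background was 0 on replicate 1 and 0.5 on replicate 2. The cytokine *Tnf* had 0.67 and 1.16 (adjusted p = 0.0340 in limma), and the interferon-responsive chemokine *Cxcl10* had 0.54 and 0.92 (adjusted p = 0.0449 in limma). The genes *Il1b*, *Il6*, *Il10* and *Hcar2* did not pass the filter on dim probes. *Cxcl3*, *Irg1* and *Cxcl2* passed it only through their treated channels, so their part in the count of 5 is a description. *Cxcl1* and *Il1a* passed it in the same way. The medians of this list include all of these genes and are therefore a description too. The median of 0.60 is the value of *Cxcl1*, whose control spots were well above background at shares of 0.25 on replicate 1 and 0.75 on replicate 2.

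**Figure D4:**
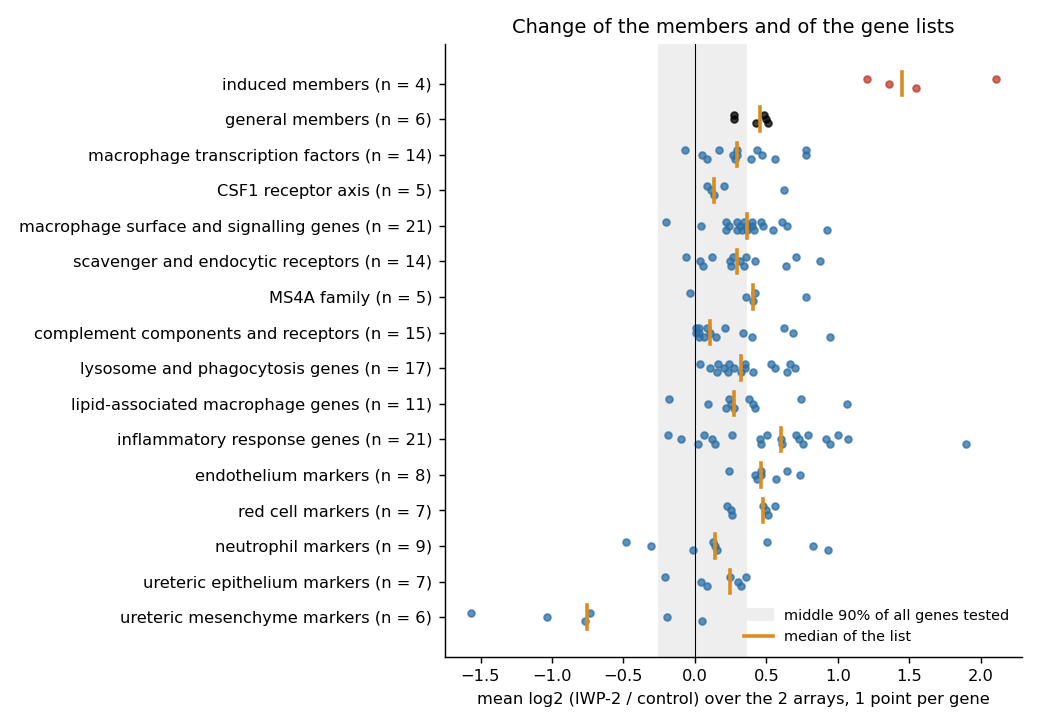
Mean log2 ratio of IWP-2 over control over both arrays, with 1 point per gene, for the members, for the functional lists without the members, and for markers of other cells; orange bars are list medians and the grey band holds the middle 90% of all genes tested, from -0.25 to 0.36. The induced members lie from 1.21 to 2.11, beyond every other point but *Cxcl3* at 1.90, while the endothelium markers have a median of 0.46 and the red cell markers of 0.48, the latter from 0.10 on replicate 1 and 0.62 on replicate 2.

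Markers of other cells differed in direction. All 8 endothelium markers were higher on both arrays, beside 28.5% of all genes, and 2 of them passed FDR 0.05 in limma, beside 0.611%. These were *Kdr*, the receptor for VEGF, by 0.74 ± 0.20 (adjusted p = 0.0359 in limma), and the tight junction gene *Cldn5*, by 0.65 ± 0.04 (adjusted p = 0.0347 in limma). The median of the 8 was 0.46. Their summed intensity was 55371 and 72993 in the control pools and 89414 and 100140 in the treated pools. The 7 red cell markers had a median of 0.48 over both arrays, but of 0.10 on replicate 1 and 0.62 on replicate 2, with 4 higher on both arrays and 0 past FDR 0.05 in limma (4 at an unadjusted p under 0.05; 0 with the trend and robust prior and 4 in the separate-channel fit). The summed intensity of the red cell markers was 314317 and 454193 in control and 443621 and 594636 in IWP-2, so that these groups overlapped. For the 14 macrophage markers the sum was 67028 and 84307 in control and 94996 and 107115 in IWP-2, a ratio of 1.27 on replicate 1 and 1.42 on replicate 2. In the ureteric mesenchyme, the tissue around the epithelium, 4 of 6 markers fell in limma, beside 1.15% of all genes. They were *Foxf1* (-1.57), *Tbx18* (-1.03), *Tcf21* (-0.77) and *Bmp4* (-0.73). *Pdgfra* and *Aldh1a2* had means of -0.19 and 0.05, and the median of the 6 was -0.75. The study proposes *Foxf1* and *Bmp4* as likely direct targets of WNT signaling. A change in the share of cell types was not tested as a part of these results.

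Other white blood cells gave no common direction. The 9 neutrophil markers had a median of 0.14, and their summed intensity was higher in IWP-2 on replicate 1 (ratio 1.19) and lower on replicate 2 (0.849). In limma 1 of the 9 rose: *Ltf*, the lactoferrin gene, with ratios of 0.64 and 1.22 (adjusted p = 0.0406) and a control channel well above background on replicate 1 only. *Ngp*, which enters the median, had the same limit on its control channel. Medians were 0.31 for 4 mast cell markers, -0.04 for 4 lymphocyte markers and -0.10 for 5 megakaryocyte markers, with 0 past FDR 0.05 in limma in these lists (2, 1 and 0 higher at an unadjusted p under 0.05; 0 in each with the trend and robust prior, and 2, 1 and 0 in the separate-channel fit). The ureteric epithelium markers had a median of 0.24 over 7 genes, with 0 calls in each of these fits and 3 higher at an unadjusted p under 0.05. Because GPNMB is also a protein of pigment cells, melanocyte markers were read as well. Of 5 tested, 1 rose in limma, the melanoblast enzyme gene *Dct*, with 0.68 and 0.75 (adjusted p = 0.0265), and the median was 0.11. *Tyrp1*, a pigment enzyme gene, did not pass the filter, and *Tyr* and *Pmel* had means of -0.05 and 0.11. The part of pigment cells in the *Gpnmb* value was not tested.

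Outside the lists, the genes with the pair of ratios nearest to the mean pair of the induced genes (1.41, 1.70) were *Tcerg1l*, *Slc13a3*, *Inhbb*, *Pmaip1* and *Esm1*, by Euclidean distance over the 2 arrays. *Tcerg1l*, at a distance of 0.14, had ratios of 1.26 and 1.69. *Slc13a3*, a dicarboxylate transporter gene at a distance of 0.36, was at least 2.51-fold higher, since no control spot of either array was well above background. The activin subunit gene *Inhbb*, the BH3-only gene *Pmaip1* and the endothelial gene *Esm1* followed at distances of 0.49, 0.61 and 0.61, with means of 1.22, 1.15 and 1.12. With 2 arrays such likeness is a likeness in size alone.

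The letters around the gene starts were read because the members moved the same way. RefSeq promoter windows on GRCm38.p6, from 250 bases before to 50 bases after the start, were found for 8 of the 10 members, and none for *C1qa* and *Csf1r*. The PU box GAGGAA, the core bound by PU.1, was searched on both strands and was present in 6 of these 8 genes, *Marco*, *Ms4a7*, *C1qb*, *C1qc*, *Cd68* and *Mrc1*, and in 28.3% of all 32851 windows. The AP-1 motif TGANTCA was present in *Gpnmb*, *Cd68* and *Ms4a7*, and in 7.81% of windows. The TCF/LEF motif CTTTGAT, through which β-catenin acts on promoters, was found in 0 of the 8 genes and in 3.73% of windows. A member was counted once if any of its windows matched, while the background counts windows, so the shares are unlike measures. As the members were chosen as macrophage genes and on this contrast, whether a motif bears on their change was not tested. No match of 1 motif overlapped a match of another in these genes. Of the induced genes *Marco* alone held the PU box before its start. For *Marco* and for the general genes with this motif upstream, 50 bases that hold it are shown 5′ to 3′ on the strand of the gene, with GAGGAA or its reverse complement TTCCTC in capitals. They span chr1:120505143-120505192 (- strand) for *Marco*, chr4:136886203-136886252 (-) for *C1qb*, chr4:136893080-136893129 (-) for *C1qc*, chr11:69666368-69666417 (-) for *Cd68* and chr2:14229212-14229261 (+) for *Mrc1*.
Marco: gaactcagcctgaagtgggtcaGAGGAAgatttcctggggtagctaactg
C1qb: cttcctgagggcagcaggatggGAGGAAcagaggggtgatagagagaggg
C1qc: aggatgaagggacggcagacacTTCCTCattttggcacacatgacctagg
Cd68: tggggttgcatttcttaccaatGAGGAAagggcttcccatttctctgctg
Mrc1: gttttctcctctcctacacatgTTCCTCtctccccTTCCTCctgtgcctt

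A filter without a test, like that of the study, was applied last to the processed signals of the scanner software. Each array had to show a change by a factor of 2 or more, with the same sign, and the brighter channel had to reach an intensity of 100. It was passed upward by 11 of 29899 gene names (0.0368%), and all 4 induced genes were among these 11 and 0 of the 6 general genes. Of the induced genes *Gpr84* lay nearest to the intensity limit, at 118 on replicate 1, and *Gpnmb* nearest to the fold limit, with a log2 ratio of 1.07 on replicate 1. As these genes were chosen from this contrast, their passage is a description.

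**Figure D5:**
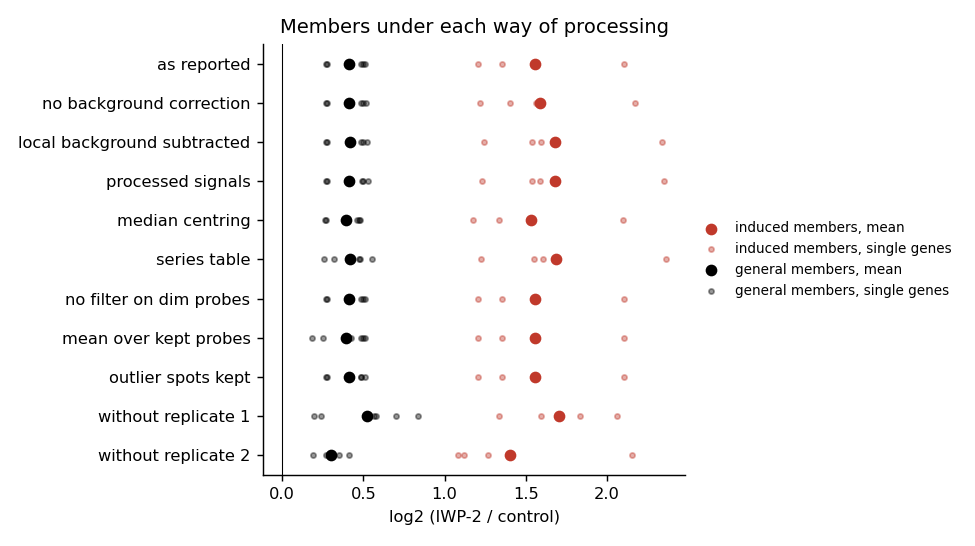
Log2 ratio of IWP-2 over control of the induced (red) and general (black) members, with large points for class means and small points for single genes, as reported and under each other way of processing. Over the alternatives that keep both arrays, class means lie from 1.53 to 1.69 and from 0.39 to 0.42, and in each row every small red point lies right of every small black point.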

How the data were processed

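RNA of pooled E11.5 ureter explants was hybridised to 2 two-colour Agilent arrays with exchanged dyes, on 1 slide. The authors deposited spot intensity values from the scanner software, Agilent Feature Extraction (version 12.2.0.7 in the file headers, 10.7.3.1 in the submitters' processing notes; design 084956, positions on mm9). A deposited table of signed fold changes, rounded to 1 decimal and named here a score, served as an alternative.

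Mean signals were background-corrected with normexp (offset 50) and loess-normalized within each array in limma 3.58.1 under R 4.3.3, with control spots at weight 0 and outlier spots left out (4.51% and 3.30% of spots). Between 68.6% and 70.7% of spots per channel were well above background, and 0 were saturated. Values of the spots of a probe, usually 4, were averaged. Kept probes had more than 0.5 of their spots well above background in both treated or both control channels; the brightest kept probe stood for its gene. Intensities were further scaled with Aquantile. Log2 ratios were turned to IWP-2 over control and tested against 0 with limma, with Benjamini-Hochberg adjustment over 20119 genes; a dye term would leave no residual degree of freedom. The procedure was tested on simulated data. The number of arrays, 2, limits the precision.

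The members and lists were chosen with earlier results of these data known. Named genes were all members and the 5 genes nearest to the induced mean. From each list, genes past FDR 0.05 were named, or otherwise the gene with the largest absolute mean. Of the WNT response genes that passed, only *Fzd10* was named. *Spi1*, *Csf1*, *Il34*, *Tyr*, *Pmel*, *Axin2*, *Pdgfra*, *Aldh1a2* and genes below the filter were named for their role or to complete a list, after their values were seen. *Cxcl1*, *Il1a*, *Fcgr1* and *Ngp* were named for their dim control channels. All 10 member names matched RefSeq symbols, and promoter windows are RefSeq's on GRCm38.p6. Alternatives are given in the closing section. The probe sequence of *Gpnmb* is not reported here.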

Additional observations from a re-analysis of the deposited data

How the results depend on the processing

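The choice of members fixed the order of the classes. With both arrays kept, 53 values of single members differed from the reported ones under an alternative; 0 of these changed sign, and 5 moved by more than the SD between the arrays: *Marco* to 2.34 with local background subtracted, 2.35 with processed signals and 2.36 in the deposited table, and *Csf1r* to 0.32 in that table and 0.19 with the mean over kept probes. The induced minus general difference, 1.14 as reported, was 1.26 with local background subtracted, 1.26 with processed signals and 1.27 in the deposited table, and 1.10 to 1.18 from either array alone (induced 1.41 to 1.70, general 0.30 to 0.52).

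Counts of calls depended on the processing, for causes that were not tested. The genes that rose, 123 as reported, numbered 74 without background correction, 0 with processed signals (1356 at an unadjusted p under 0.05), 7 with median centring, 1038 in the deposited table, 21 without the filter on dim probes, 224 with the mean over kept probes, 226 with a trend and robust prior, 711 in a separate-channel fit with a dye term, 9 at FDR 0.01 and 11 by the intensity and fold filter. Those that fell, 232 as reported, numbered 0 with processed signals (1108 unadjusted), 36 with median centring, 1322 in the deposited table, 98 without the dim filter, 456 in the separate-channel fit, 55 at FDR 0.01 and 50 by the intensity and fold filter. Of the other macrophage genes, 11 as reported, 5 rose without background correction, 6 with local background subtracted, 0 with processed signals (23 unadjusted), 1 with median centring, 1 without the dim filter, 19 with the mean over kept probes, 18 with the trend and robust prior, 44 in the separate-channel fit, 0 at FDR 0.01 and 0 by the intensity and fold filter; 1 fell in the deposited table.

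The separate-channel fit was chosen after seeing the data: with the dye term the intraspot correlation could not be estimated, so it was estimated without that term, and the planned form was not run. Calls with 1 array left out were not run, because 1 array leaves no residual degree of freedom. Dim probes limit the reading of *Cxcl1*, *Cxcl2*, *Cxcl3*, *Fcgr1*, *Il1a*, *Irg1*, *Ltf*, *Ngp* and *Slc13a3*, which passed the filter only through their treated channels.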
